A study of Mus musculus with 6 samples.

Results

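The genes examined were 9 components of the activin system, taken by symbol from a table of 48897 genes. They were the activin subunit genes Inhba and Inhbb, the follistatin genes Fst, Fstl3 and Fstl1, the type I receptor genes Acvr1 and Acvr1b, and the type II receptor genes Acvr2a and Acvr2b. All 9 were present in the table and passed the filter on low counts. The RNA was that of sinusoidal endothelial cells from livers of C57BL/6 mice aged 7 to 8 weeks, isolated with magnetic beads against CD146, the surface protein encoded by Mcam. The animals had undergone partial hepatectomy (PHx, in which a portion of the liver is cut out) or a sham operation 14 days earlier, and neither group carried a genetic change according to the labels. Each group had 3 libraries, numbered 1, 3 and 4. The labels do not say whether the libraries came from separate animals, so p-values reflect the spread among these libraries alone, and that spread may be technical.

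Activins are dimers of inhibin beta chains, activin A of the chain encoded by Inhba and activin B of the chain encoded by Inhbb. They bind a type II receptor, which recruits and phosphorylates a type I receptor, and the signal passes to SMAD2 and SMAD3. Follistatin and follistatin-like 3 bind activins and keep them from their receptors, and in the liver activin A is known as a brake on hepatocyte growth.

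Fstl1 was the member that rose after PHx, from 52.6 ± 9.60 to 187 ± 19.2 CPM (counts scaled to library size; SD, n = 3 per group). Inhba, at 3.23 ± 0.77 in sham and 7.74 ± 1.05 CPM in PHx, had no overlap between the groups but missed the threshold of an adjusted p of 0.05. Inhbb, by far the more abundant activin chain, stood at 282 ± 82.6 and 205 ± 70.8 CPM with overlapping groups. The 4 receptor genes had log2 fold changes between -0.36 and 0.28, and none passed. By edgeR's quasi-likelihood F-test 1 of the 9 genes (11.1%) was higher and 0 were lower, where of the 19033 genes tested 0.846% were higher, 0.0158% lower and 0.862% called in either direction. In 4 of the 9 genes all PHx libraries lay above all sham libraries and in 0 below, where this held for 10.6% and 9.96% of the genes tested. At an unadjusted p under 0.05, 4 members were higher (Fstl1, Inhba, Fst and Acvr2a) and 0 lower, against 7.93% and 4.73% of all genes. DESeq2 called 2 members higher, Fstl1 and Inhba, and 0 lower, where over the whole table it called 727 genes higher and 84 lower. For edgeR these numbers were 161 and 3, so the edgeR shares do not apply to counts of genes called by DESeq2.

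Libraries held between 38765116 and 51888481 counts. The 10 sinusoidal endothelial markers were all detected, with summed levels of 28457 to 30759 CPM in sham and 15987 to 24545 CPM in PHx, so the groups did not overlap. None of the 10 passed edgeR's test, with 6 lower before adjustment (p under 0.05), and by DESeq2 4 were lower (Clec4g, Fcgr2b, Kdr and Stab1). The 14 stellate cell and fibroblast markers, from cells that lie beside the sinusoidal endothelium, summed to 2796 to 3685 CPM in sham and 7283 to 8597 CPM in PHx, and 8 of the 14 rose in edgeR (13 higher before adjustment at p under 0.05, and 12 called higher by DESeq2). The 6 mesothelial markers summed to 24.8 to 47.0 and 81.8 to 131 CPM, and 2 of the 6, Upk1b and Msln, rose in edgeR (5 higher before adjustment at p under 0.05, and 5 called higher by DESeq2). Neutrophil markers reached 3802 CPM in PHx 4, 552 CPM in PHx 1 and 22.0 to 268 CPM in the other libraries. Of 7 neutrophil, 8 hepatocyte, 6 Kupffer cell and 5 cholangiocyte markers none passed in edgeR or in DESeq2, with 1, 0, 0 and 1 higher and 0 lower before adjustment (p under 0.05). Hepatocyte markers summed to 1098 to 1604 CPM in sham and 593 to 1224 CPM in PHx, and Kupffer cell markers to 61.1 to 322 and 30.1 to 88.0 CPM. Both sums overlapped between groups. A positive log2 fold change was seen in 0 of the 8 hepatocyte and 1 of the 6 Kupffer cell markers. Their medians were -0.61 and -1.37, against 0.03 over all genes tested. No marker on these lists was at 0. In such bulk samples fewer cells of a type and less RNA per cell cannot be told apart. Mcam itself is also known from pericytes, with 342 ± 53.3 CPM among the sham and 369 ± 37.3 CPM among the PHx libraries.

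**Figure D1:**
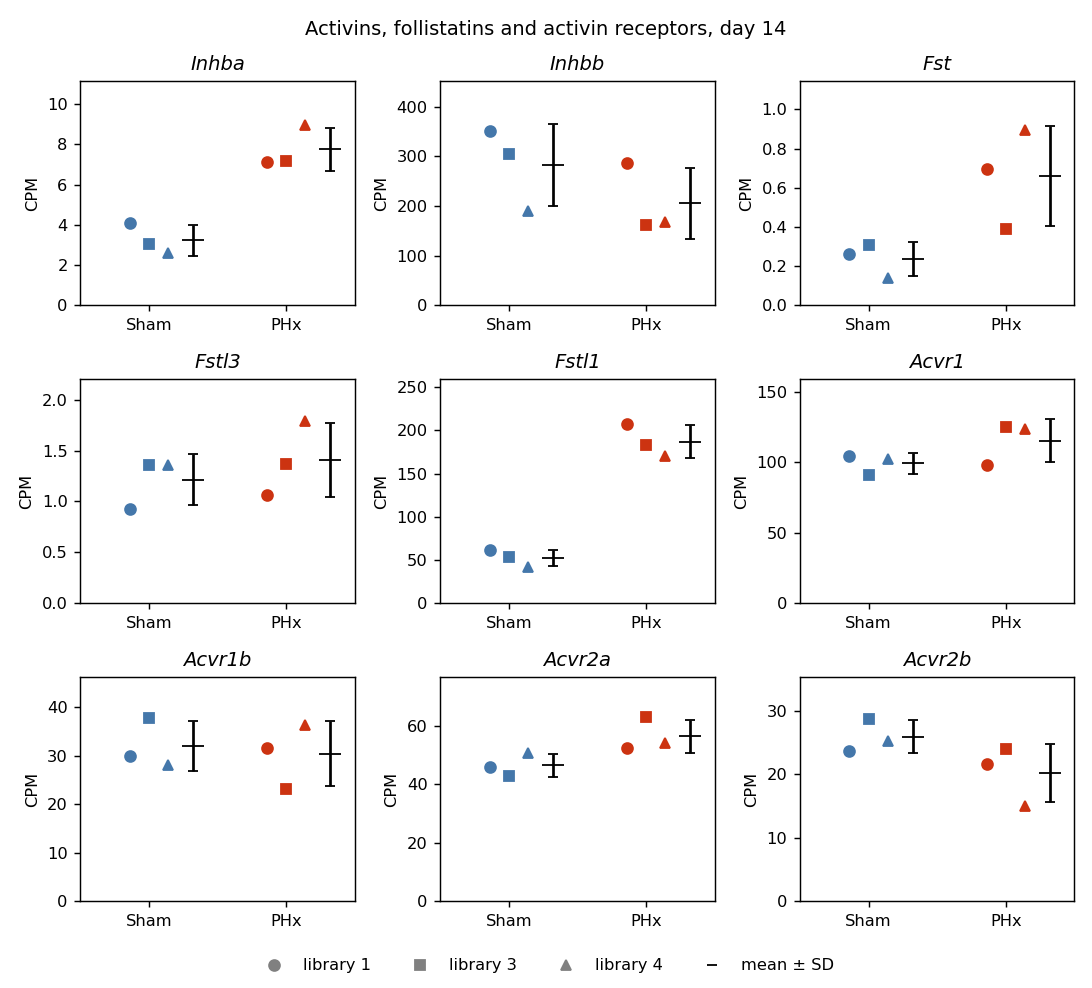
Level of each of the 9 genes in every library, in TMM-scaled CPM on linear axes that start at 0. Symbols are libraries 1, 3 and 4 of the sham (blue) and PHx (red) groups, and black bars are the mean ± SD. The PHx libraries lie above all sham libraries for Inhba, Fst, Fstl1 and Acvr2a and overlap them for the other 5 genes.

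Both activin chain genes were measured. Inhba (chromosome 13, 16007743 to 16027723, mm10) stood at 4.08, 3.04 and 2.58 CPM in Sham 1, 3 and 4 and at 7.13, 7.15 and 8.96 CPM in PHx 1, 3 and 4. Every PHx library lay above every sham library. The log2 fold change was 1.26 ± 0.25 (SE), with a 95% interval of 0.67 to 1.85 and an edgeR adjusted p of 0.0816. DESeq2 gave an adjusted p of 0.000295, and without a filter on low counts edgeR gave 0.0359, so the call depends on those choices.

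Inhbb (chromosome 1, 119415465 to 119422248) was expressed at 351, 305 and 191 CPM in the sham libraries and at 287, 161 and 167 CPM in PHx. Sham 4 lay well below the other sham libraries, and PHx 1 lay well above the other PHx libraries and within the sham range. The log2 fold change was -0.46 ± 0.30, with a 95% interval of -1.18 to 0.26 and an edgeR adjusted p of 0.560. The interval includes no change as well as a fall by more than 1 on the log2 scale.

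Scaled by gene length, as RPKM (counts scaled to gene length and library total), Inhba amounted to 0.692%, 0.592% and 0.806% of Inhbb in Sham 1, 3 and 4. In PHx 1, 3 and 4 the same ratio was 1.48%, 2.64% and 3.19%. The ratio was higher in all 3 PHx libraries, while Inhbb transcripts remained at least 31.4 times as abundant as Inhba per length in every library. This ratio was described and not tested.

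Among the genes of the follistatin family, Fst and Fstl3 encode the activin-binding proteins. Fst (chromosome 13, 114452262 to 114458951) was scarce, with 10, 16 and 7 counts in Sham 1, 3 and 4 and 36, 19 and 43 counts in PHx 1, 3 and 4. These correspond to 0.265, 0.309 and 0.142 CPM for sham and to 0.695, 0.389 and 0.896 CPM for PHx. The PHx libraries lay above the sham libraries, with PHx 3 close to the highest of them. The log2 fold change was 1.46 ± 0.60 with a wide 95% interval of 0.06 to 2.86, and it did not pass (edgeR adjusted p = 0.380).

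Fstl3 (chromosome 10, 79777274 to 79782630) had 0.928, 1.35 and 1.36 CPM in the sham libraries and 1.06, 1.37 and 1.79 CPM in PHx, with overlapping groups. Its log2 fold change was 0.21 ± 0.38 (edgeR adjusted p = 0.846), with a 95% interval from -0.68 to 1.10. Per length, Fstl3 stood above Fst in all 6 libraries, by 2.24 to 14.0 times. Both were rare beside Inhbb per length. Fst was at 0.111% to 0.151% of Inhbb in sham and 0.359% to 0.796% in PHx, and Fstl3 at 0.576% to 1.56% in sham and 0.807% to 2.33% in PHx.

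Fstl1 (chromosome 16, 37777055 to 37836516) encodes a secreted glycoprotein that shares the follistatin domain but is best known as a product of mesenchymal cells and as a modulator of BMP signalling. It stood at 61.7, 53.6 and 42.5 CPM in Sham 1, 3 and 4 and at 208, 183 and 170 CPM in PHx 1, 3 and 4. The lowest PHx library was far above the highest sham library. The rise was 3.55-fold in the fit, a log2 fold change of 1.83 ± 0.16 with a 95% interval of 1.46 to 2.20 and an edgeR adjusted p of 0.00624. Fstl1 ranked 12 by p among the 19033 genes tested. The adjusted p was 0.0604 without Sham 3 and 0.0507 without Sham 4, with log2 fold changes of 1.81 and 1.66.

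**Figure D2:**
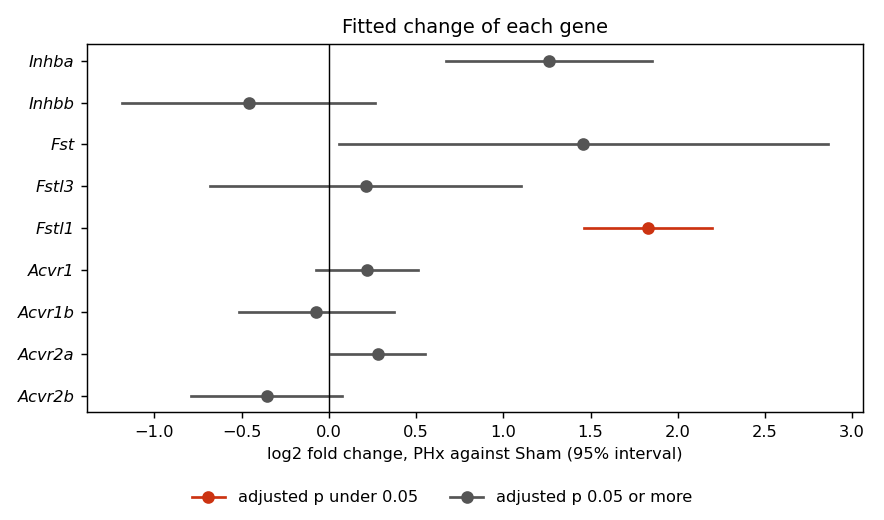
Fitted log2 fold change of each gene, PHx against sham, with its 95% interval from edgeR. Fstl1, in red, is the gene with an adjusted p under 0.05 (1.83, interval 1.46 to 2.20), and the intervals of Inhba, Fst and Acvr2a also lie above 0 before adjustment.

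The region before the start of Fstl1 is shown beside that of Inhbb, as the member that rose and the most abundant activin chain gene. Both are the 250 bases before the RefSeq start on GRCm38.p6, which for these genes is also the start in the deposited table. They are written 5′ to 3′ on the gene's strand, at chr16:37776805-37777054 (+) for Fstl1 and chr1:119422249-119422498 (-) for Inhbb, with GC boxes (GGGCGG on either strand) in capitals.
Fstl1: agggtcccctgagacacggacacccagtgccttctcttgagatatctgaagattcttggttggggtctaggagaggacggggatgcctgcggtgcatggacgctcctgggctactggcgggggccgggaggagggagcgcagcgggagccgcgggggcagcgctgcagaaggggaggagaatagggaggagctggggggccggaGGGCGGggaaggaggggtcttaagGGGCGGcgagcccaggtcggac
Inhbb: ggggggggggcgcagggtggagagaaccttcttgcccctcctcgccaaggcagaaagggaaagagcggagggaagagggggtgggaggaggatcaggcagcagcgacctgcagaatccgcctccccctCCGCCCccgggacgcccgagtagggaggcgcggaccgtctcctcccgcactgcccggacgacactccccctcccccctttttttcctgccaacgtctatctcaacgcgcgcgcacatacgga
Each sequence was 68% G and C, where the median over 32851 promoters was 52.4%. These promoters leave out 1 chromosome, which holds none of the members. The Fstl1 region had 2 GC boxes and the Inhbb region 1, and 32.7% of these promoters had at least 1. Neither region held the SMAD element CAGAC, the GC-rich SMAD element GGCGCC, an AP-1 site TGANTCA, the TEAD element GGAATG or a TATA box TATAAA. Those occurred in 42.2%, 9.59%, 6.75%, 12.6% and 12.4% of promoters on either strand. A missing match says only that these letters are not in this window. RefSeq promoters were matched for 8 of the 9 members, and CAGAC was found in 3 of the 8 (Acvr2a, Acvr2b and Fstl3). A GC box was found in 7 of the 8, all but Inhba. The G and C share was 71.2% to 85.6% for Fstl3, Acvr1, Acvr1b, Acvr2a and Acvr2b and 43.2% for Inhba. For Inhba, Acvr1b and Acvr2b the RefSeq start was not the start in the deposited table. The Inhba window lay before 16011851, where the deposited start was 16007743.

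Markers of mesenchymal cells, like Fstl1, were higher in PHx, but the order among the PHx libraries was not shared. Fstl1 was highest in PHx 1 (208 CPM), where the summed stellate and fibroblast markers were lowest among the PHx libraries (7283 CPM). Among the 14 stellate and fibroblast markers, the type III collagen chain gene Col3a1 rose by 2.51 ± 0.18, the type I collagen chain gene Col1a2 by 2.78 ± 0.28 and the muscle intermediate filament gene Des by 1.30 ± 0.15 on the log2 scale. The median of the 14 was 1.31, against 0.03 over all genes tested. All PHx libraries lay above all sham libraries in 12 of the 14, where this held for 10.6% of the genes tested. The groups overlapped for Reln (0.53) and Ecm1 (0.41). Fstl1 equalled 1.67%, 1.76% and 1.52% of the summed CPM of these markers in Sham 1, 3 and 4, and the same share was 2.85%, 2.13% and 2.06% in PHx 1, 3 and 4. The part of these cells in the Fstl1 result was not tested.

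**Figure D3:**
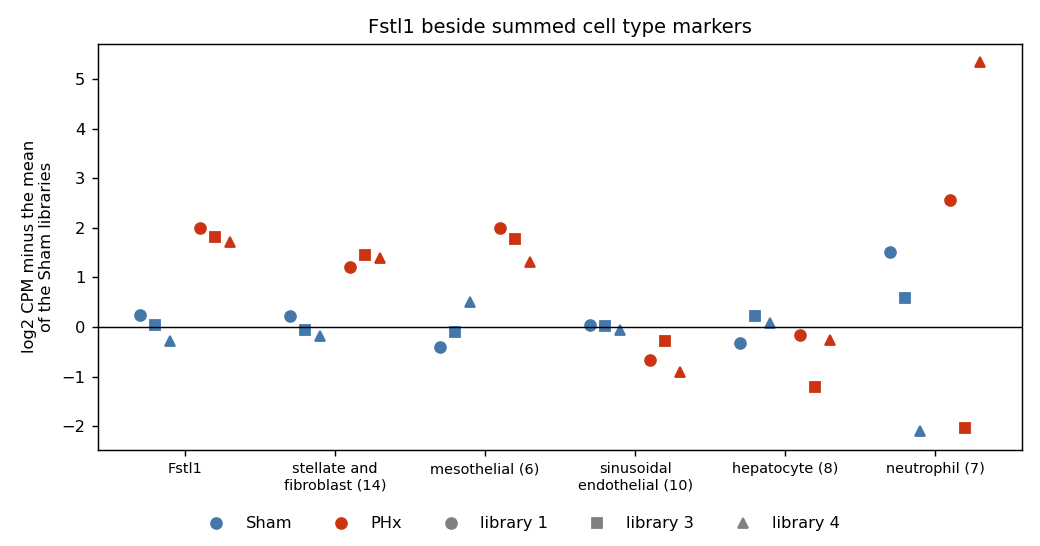
Fstl1 and the summed CPM of 5 marker lists in every library, as log2 CPM minus the mean of the sham libraries. The number of markers is in parentheses, blue is sham, red is PHx, and symbols are libraries 1, 3 and 4. Fstl1, stellate and mesothelial markers are higher in all 3 PHx libraries, endothelial markers are lower in all 3, and neutrophil markers follow single libraries.

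The genes whose course over the 6 libraries was closest to that of Fstl1 were found by the root mean square difference in log2 CPM, after each gene was centred on its own mean. Of 14572 other genes with at least 1 CPM on average, the nearest was Postn, the matrix protein periostin, at a difference of 0.14. Pdzrn3, a ring finger protein, followed at 0.16. Plod2, a lysyl hydroxylase of collagen, and Fn1, fibronectin, were both at 0.17, and Lhfp was at 0.19. Since the measure includes the difference between groups, genes that rose by a similar amount are near by construction.

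Among the receptors, Acvr1 (chromosome 2, 58446438 to 58566828) encodes a type I receptor also known as ALK2, which mainly serves BMPs. It stood at 105, 91.1 and 102 CPM in the sham libraries and at 98.1, 125 and 124 CPM in PHx. PHx 1 lay within the sham range and the other PHx libraries above it. The log2 fold change was 0.22 ± 0.13 (edgeR adjusted p = 0.503).

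Acvr1b (chromosome 15, 101174125 to 101212601) encodes the activin type I receptor ALK4. The sham libraries had 29.9, 37.8 and 28.1 CPM, and the PHx libraries 31.5, 23.2 and 36.4 CPM. The groups overlapped, with PHx 3 the lowest library and Sham 3 the highest. The log2 fold change was -0.07 ± 0.19, with a 95% interval of -0.52 to 0.37 (edgeR adjusted p = 0.902).

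The type II receptor genes had differences of opposite sign, and neither passed the test. Values of Acvr2a (chromosome 2, 48814109 to 48903264) were 46.0, 42.8 and 50.5 CPM after sham surgery and 52.3, 62.9 and 54.1 CPM after PHx, a log2 fold change of 0.28 ± 0.12 (edgeR adjusted p = 0.380). For Acvr2b (chromosome 9, 119401584 to 119442148) they were 23.7, 28.8 and 25.3 CPM after sham surgery and 21.7, 24.0 and 15.1 CPM after PHx, a log2 fold change of -0.36 ± 0.19 (edgeR adjusted p = 0.472). Acvr2a lay higher in every PHx library than in every sham library, by a small margin, whereas the Acvr2b groups overlapped at Sham 1 and PHx 3. Per length, Acvr2a was 3.82, 2.93 and 3.94 times Acvr2b in Sham 1, 3 and 4 and 4.77, 5.17 and 7.07 times in PHx 1, 3 and 4, a ratio that did not overlap between groups and was not tested. Acvr2a shares its end with Orc4 on the other strand, which held 655 to 1345 counts per library, and the use of strand in counting is not given in the sources used here.

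Ordered by mean RPKM, the sham libraries had Inhbb first (65.4 ± 18.7 RPKM), then Acvr1 (25.1 ± 1.60), Fstl1 (14.4 ± 2.51), Acvr1b (9.63 ± 1.64), Acvr2a (8.03 ± 0.67), Acvr2b (2.27 ± 0.25), Fstl3 (0.614 ± 0.13), Inhba (0.446 ± 0.10) and Fst (0.0824 ± 0.030). In PHx, Fstl1 came first at 52.6 ± 7.68 RPKM and Inhbb second at 49.4 ± 19.4 RPKM, which do not differ beyond their spread. Acvr1 followed at 29.8 ± 2.70 RPKM, and Inhba, at 1.10 ± 0.13, stood above Fstl3, at 0.726 ± 0.17. Inhba was already above Fstl3 in Sham 1 (0.556 and 0.462 RPKM), so the sham order of this pair did not hold in every library. Acvr1b and Acvr2a were neighbours that did not differ beyond their spread in either group. Fstl1 was below Acvr1 in all 3 sham libraries and above it in all 3 PHx libraries.

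Other genes of the pathway were described from 6 lists. Of 5 tested ligand genes beside Inhba and Inhbb none passed in edgeR, with 1 higher and 0 lower before adjustment (p under 0.05) and 1 called higher by DESeq2, Gdf11. The most abundant per length were Gdf15 (6.81 ± 2.43 CPM in sham and 10.1 ± 5.14 CPM in PHx), Inha, the inhibin alpha chain (1.03 ± 0.25 and 1.80 ± 1.35 CPM), and Inhbc, a hepatocyte beta chain (0.580 ± 0.12 and 0.499 ± 0.20 CPM). The log2 fold change of Inha was 0.79 and 0.060 without PHx 1, and that of Gdf15 was 0.56, 0.27 without Sham 3 and 0.076 without PHx 4. Mstn, Nodal, Gdf1 and Gdf3 were too low to test. Gdf11, an activin-like ligand named here after its values were seen, had 2, 2 and 1 counts in Sham 1, 3 and 4 and 22, 29 and 27 counts in PHx 1, 3 and 4 (edgeR adjusted p = 0.0681).

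Of 11 tested receptor and coreceptor genes, Bmpr1a rose (9.09%) and 0 fell, where 0.846% of all genes tested were higher. Bmpr1a encodes the BMP type I receptor ALK3 and lies at 34411068 to 34503461 on chromosome 14. It stood at 13.7, 14.8 and 15.8 CPM in the sham libraries and 27.6, 29.2 and 28.8 CPM in PHx, a log2 fold change of 0.95 ± 0.12 with an edgeR adjusted p of 0.0204. The adjusted p was 0.102 with the replicate number as a block and 0.0969, 0.151, 0.112, 0.0598 and 0.0546 without Sham 1, Sham 3, Sham 4, PHx 1 and PHx 3. Eng, the endothelial coreceptor endoglin, stood at 5614 ± 151 and 3786 ± 1034 CPM (edgeR adjusted p = 0.372), and Fkbp1a, which binds type I receptors, at 419 ± 37.3 and 413 ± 23.8 CPM. The list's median log2 fold change was -0.02. At an unadjusted edgeR p under 0.05, 2 of the 11 were higher (Bmpr1a and Tgfbr1) and 1 was lower (Eng). All PHx libraries lay above all sham libraries in 2 of the 11 and below them in 3 (Eng, Tgfbr2 and Tgfbr3). Over all genes tested this held for 10.6% and 9.96%.

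Other extracellular antagonists were scarce, and of 8 tested none passed in edgeR or in DESeq2, with 2 higher and 0 lower at an unadjusted p under 0.05. Lefty1 stood at 6.74 ± 0.92 and 6.49 ± 1.75 CPM, Wfikkn1 at 6.75 ± 2.37 and 5.80 ± 0.94 CPM, and the BMP antagonist Chrd at 0.572 ± 0.28 and 1.70 ± 0.70 CPM. None of 13 tested SMAD genes and SMAD regulators passed in edgeR or in DESeq2, and 0 had an unadjusted p under 0.05. Their median was 0.07, and the inhibitory Smad6 (-0.25 ± 0.13), the repressor Ski (-0.13 ± 0.11) and the inhibitory Smad7 (0.09 ± 0.14) were the most abundant per length. Of 4 proprotein convertases, which cleave activin precursors, none passed in edgeR or in DESeq2 and 1, Pcsk6, was higher at an unadjusted p under 0.05. Furin stood at 0.12 ± 0.13, Pcsk7 at -0.17 ± 0.10 and Pcsk6 at 0.63 ± 0.21 on the log2 scale.

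Of 9 genes known as SMAD2 and SMAD3 targets, Ltbp2 rose (11.1%) and 0 fell, where 0.846% of all genes tested were higher. A positive log2 fold change was seen in 8 of the 9. Their median was 0.74, against 0.03 over all genes tested. The median gene was Skil, with 82.3, 82.6 and 93.8 CPM in Sham 1, 3 and 4 and 88.6, 123 and 219 CPM in PHx 1, 3 and 4. Tgif1 was also highest in PHx 4, at 60.6 CPM against 29.5 and 24.6 CPM in PHx 1 and 3. Skil and Smad7 are also among the 13 tested SMAD genes and regulators. Ltbp2, a matrix protein related to latent TGF-beta binding proteins, is itself known from fibroblasts. It stood at 2.46, 5.12 and 3.98 CPM in the sham libraries and 39.8, 30.3 and 22.0 CPM in PHx, a log2 fold change of 2.99 ± 0.33 with an edgeR adjusted p of 0.0175. The adjusted p was 0.122 with the replicate number as a block, 0.0601 without Sham 3 and 0.137 without Sham 4. Tgfbi (304 ± 99.2 and 538 ± 128 CPM) and Ctgf (269 ± 62.8 and 299 ± 71.1 CPM) did not pass. DESeq2 called 2 of the 9 higher, Ltbp2 and Pmepa1. Pmepa1, a membrane protein induced by TGF-beta and named here after its values were seen, had 20.9, 25.3 and 26.2 CPM in the sham libraries and 45.8, 45.8 and 33.7 CPM in PHx (edgeR adjusted p = 0.0816).

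**Figure D4:**
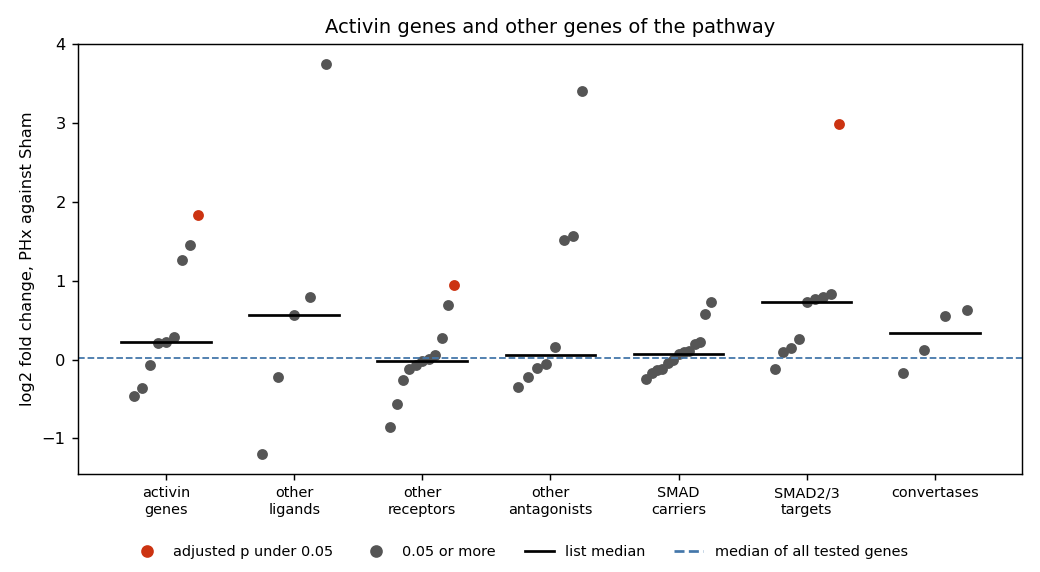
Log2 fold change of every tested gene, PHx against sham, for the 9 activin genes and 6 lists of the pathway. Red points have an edgeR adjusted p under 0.05 (Fstl1, Bmpr1a and Ltbp2), black bars are list medians, and the dashed line is the median of all tested genes at 0.03.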

How the data were processed

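RNA of 6 libraries was analysed from one deposited table with a whole-number count, an RPKM value and a length per gene. Reads were aligned by the authors with TopHat2 2.0.13 to mm10 (GRCm38), per the submitters' processing notes. The counting program, annotation release and use of strand are not given in the sources used here. All deposited RPKM values (100%) equalled the count over length and library total within a relative error of 1e-06. The deposited counts were used for all tests and RPKM for levels between genes.

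Differences were fitted over all 19033 genes that passed filterByExpr with edgeR 4.0.16 in R 4.3.3 (TMM scaling, robust quasi-likelihood F-test, group as the only term), with Benjamini-Hochberg adjustment and a threshold of 0.05. SE is the absolute log2 fold change over the root of F, and CPM are TMM-scaled. Where no count was seen, up to 3 (0.0580 to 0.0795 CPM) are allowed by counting error. Pairs of libraries differed by a chi-square of at least 49.9 per degree of freedom, so none repeated another. In counts simulated for this comparison (18466 genes) the fit recovered 25% of genes changed by a log2 size of 1 and 74% at a size of 2. The simulated spread was set by a gene's level alone, so recovery in the real counts may differ.

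The members and lists were chosen with earlier results of these data known. Named are all members and, per list, up to 3 genes, the called ones first and then the most abundant per length. An item of 1 list is not reported here. Alternatives were other scaling factors and filters, DESeq2 1.42.0, limma-voom 3.58.1, the replicate number as a block, and leaving out libraries.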

Additional observations from a re-analysis of the deposited data

How the results depend on the processing

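The fit without Sham 4 and PHx 4 together was chosen after the data were seen. In the 14 alternatives Fstl1 kept a log2 fold change between 1.66 and 1.93 and an unadjusted p of at most 5.4e-05. Its call was lost without Sham 3 (1.81) and without Sham 4 (1.66), so the fits that each left out a library gave 0 to 1 members called higher and 0 lower, and 1.66 to 1.93 for Fstl1. Fewer samples entered those fits. Of all genes tested, 6 were called higher and 1 lower without Sham 3. Without Sham 4, 0 were called in either direction. The other fits that each left out a library called 34 to 160 genes higher. The number called higher was 2 without the low-count filter and also 2 in DESeq2. Inhba stood at 1.23 and 1.25 there and passed, and the cause was not tested. Over the whole table those 2 fits called 359 and 727 genes higher. The other 7 members stayed on their side of the threshold wherever they were tested, and Fst and Fstl3 could not be tested with at least 5 CPM in 3 libraries. Acvr1b changed sign without Sham 3 (0.038) and without PHx 3 (0.081), and leaving out each library gave -0.22 to 0.081. The same fits gave -0.79 (without PHx 1) to -0.30 (without Sham 1) for Inhbb, -0.50 (without PHx 3) to -0.19 (without PHx 4) for Acvr2b, 0.00061 (without PHx 4) to 0.37 (without PHx 1) for Fstl3, with 0.028 without Sham 1, and 0.13 (without Sham 3) to 0.32 (without PHx 1) for Acvr1. With the replicate number as a block (pairing by number) 1 member was called higher, with Fstl1 at 1.84 (adjusted p = 0.0462) and Inhba at 1.28 (adjusted p = 0.240), and 14 genes were called higher over the whole table. Same-numbered libraries did not deviate together, with correlations of -0.090, -0.23 and 0.027. Among pathway genes that did not pass, Fkbp1a was at 0.024 with the 5 CPM filter, and without Sham 4 and PHx 4 it was at 0.027, Inhbc at 0.086, Lefty1 at 0.13 and Furin at -0.047. Leaving out each library gave -0.12 to 0.013 for Fkbp1a, -0.036 to 0.16 for Smad7, -0.050 to 0.34 for Ctgf, -0.30 to 0.077 for Lefty1, -0.43 to 0.061 for Wfikkn1 and -0.024 to 0.20 for Furin. Without Sham 4 and PHx 4 the calls of Bmpr1a (adjusted p = 0.112) and Ltbp2 (adjusted p = 0.114) were lost. At 7 to 43 counts per library, Fst is limited by depth.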

Other observations

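Several members overlap a gene on the other strand. Fstl1 overlaps the noncoding Gm41452, which had 106, 93 and 36 counts in Sham 1, 3 and 4 and 87, 77 and 46 counts in PHx 1, 3 and 4, with overlapping groups. The antisense partner of Inhba had at most 5 counts in a library, Gm41074 beside Fst at most 1, and Prss57 beside Fstl3 at most 15. The BMP antagonist Grem1, named after its values were seen, had 2, 2 and 0 counts in Sham 1, 3 and 4 and 14, 19 and 17 counts in PHx 1, 3 and 4 (edgeR adjusted p = 0.207).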
